A study of Mus musculus with 6 samples.

Results

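The genes described here are *Cd4* and 6 of its neighbours on mouse chromosome 6, *Gpr162*, *Lag3*, *Ptms*, *Mlf2*, *Cops7a* and *Usp5*, which are 7 of the 24972 rows of the expression table. The locus was selected on the measured levels of *Cd4* and *Gpr162*, which rise together in macrophages without *Lcn10*. The difference of those genes between the genotypes is therefore given as a description with no test. The other 5 genes were taken as neighbours of the pair, with earlier results of these data known. Not every gene between them was taken. *Cd4* and *Gpr162* were 2.75 and 2.68 times as high without *Lcn10*, *Ptms* 1.28 times, *Mlf2*, *Cops7a* and *Usp5* lay within the range of the controls or close to it, and *Lag3* was hardly detected. RNA sequencing was performed on bone marrow-derived macrophages, which were grown from mouse marrow in DMEM with L929 cell supernatant, a source of macrophage colony-stimulating factor, and fetal bovine serum, and were left untreated. There were 3 libraries from wild-type (WT) mice and 3 from Lcn10-knockout (Lcn10-KO) mice, which lack a gene for a secreted lipocalin. The labels give neither strain, age nor sex, nor how the knockout was made, nor whether the replicates of a genotype were separate animals, and every p-value therefore rests on the spread between libraries, which can be technical.

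CD4 is a transmembrane glycoprotein of the immunoglobulin superfamily that binds MHC class II molecules and, in helper T cells, brings the kinase LCK to the T cell receptor. Some monocytes, macrophages and dendritic cells carry it as well. LAG-3, whose gene lies beside *Cd4*, is a structural relative that also binds MHC class II and restrains activated T cells. In mouse and human this stretch of chromosome is dense in genes, and the neighbours of *Cd4* include housekeeping genes with unrelated functions.

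On GRCm38 (mm10), as GENCODE M21 annotates it, the 7 genes span 150.5 kb of chromosome 6, from 124815019 to 124965538, with 10 protein-coding genes in that span. In the order of the chromosome these are *Usp5*, *Cdca3*, *Gnb3*, *P3h3*, *Gpr162*, *Cd4*, *Lag3*, *Ptms*, *Mlf2* and *Cops7a*. *Cd4* (ENSMUSG00000023274.14, 124864692 to 124888221, minus strand) is followed on the same strand by *Gpr162* (ENSMUSG00000038390.11, 124858444 to 124863983) after a gap of 708 bases. *P3h3* follows *Gpr162* on that strand after another 691 bases. On the upstream side of *Cd4* the nearest gene is *Lag3* (ENSMUSG00000030124.2, 124904361 to 124911705, minus strand), at a distance of 16139 bases, and *Ptms* (ENSMUSG00000030122.12, 124913681 to 124920103, minus strand) comes 1975 bases beyond *Lag3*. *Mlf2* (ENSMUSG00000030120.14, 124931386 to 124937238) is on the plus strand, *Cops7a* (ENSMUSG00000030127.15, 124958413 to 124965538) and *Usp5* (ENSMUSG00000038429.10, 124815019 to 124829484) are on the minus strand. None of the 10 coding genes overlaps another of them. *Ptms* overlaps the antisense gene *A230083G16Rik* over 3241 bases, and that gene did not exceed 3.20 normalized counts in any library.

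RefSeq start regions, from 250 bases before to 50 bases after a transcription start (GRCm38.p6), were at hand for 3 of the 7 genes, *Ptms*, *Mlf2* and *Cops7a*, and for *P3h3*. Those of *Ptms* and *P3h3*, the nearest expressed genes on either side of the *Cd4*-*Gpr162* pair, and of *Mlf2*, the next gene after *Ptms*, are shown 5′ to 3′ with each GC box (GGGCGG on either strand) in capitals. They lie at chr6:124917897-124918196 (minus strand, inside the longer GENCODE gene), chr6:124857668-124857967 (minus strand) and chr6:124931138-124931437 (plus strand).
Ptms: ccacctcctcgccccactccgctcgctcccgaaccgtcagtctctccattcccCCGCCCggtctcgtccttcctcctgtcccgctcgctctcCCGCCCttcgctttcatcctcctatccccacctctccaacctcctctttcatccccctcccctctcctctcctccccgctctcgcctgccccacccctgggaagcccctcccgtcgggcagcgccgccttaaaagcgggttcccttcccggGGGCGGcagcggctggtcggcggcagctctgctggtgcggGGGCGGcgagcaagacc
P3h3: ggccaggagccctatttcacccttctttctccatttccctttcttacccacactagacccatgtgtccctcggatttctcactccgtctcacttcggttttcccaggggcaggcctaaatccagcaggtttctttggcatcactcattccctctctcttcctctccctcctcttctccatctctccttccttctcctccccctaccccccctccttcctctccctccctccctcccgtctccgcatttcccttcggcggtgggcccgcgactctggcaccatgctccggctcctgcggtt
Mlf2: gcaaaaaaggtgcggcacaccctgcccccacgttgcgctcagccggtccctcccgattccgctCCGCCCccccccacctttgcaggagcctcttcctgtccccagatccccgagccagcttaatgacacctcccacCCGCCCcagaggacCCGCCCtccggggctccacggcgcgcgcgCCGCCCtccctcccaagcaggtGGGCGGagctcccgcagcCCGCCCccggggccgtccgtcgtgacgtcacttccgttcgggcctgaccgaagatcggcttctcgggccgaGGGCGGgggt

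The start regions of *Ptms* and *Mlf2* were rich in G and C, at 70.3% and 72.7%, against 58.7% for *P3h3* and a median of 52.7% over 32851 start regions. *Ptms* held 4 GC boxes, *Mlf2* 7 and *P3h3* 0, and 35.7% of all start regions held at least 1. The motif GAGGAA, an ETS core bound by the macrophage factor PU.1, was found once in *Ptms*, at 2 positions in *P3h3* and not in *Mlf2*, against 28.3% of all start regions with a match. The E-box CANNTG was found at 1 position each in *P3h3* and *Mlf2* and not in *Ptms* (72.3% of all start regions). The RUNX motif TGTGGT (16.8%), the AP-1 motif TGANTCA (7.81%) and the TATA box TATAAA (13.6%) had no match in these 3 regions. All motifs were searched on both strands, and matches of different motifs were allowed to overlap.

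The 6 libraries held about 18000000 to 24800000 reads each, from the total divided by the value of a single read, and values are read counts that the authors scaled to nearly equal totals (normalized counts). WT replicate 1 stood apart on the first principal component of the tested genes, which held 39.9% of the variance, at −26.25, where WT replicates 2 and 3 had −4.64 and −9.29 and the Lcn10-KO libraries 9.92 to 15.29. In the cells, all 15 genes of a macrophage list passed the filter of at least 10 normalized counts in at least 3 libraries, with *Lyz2* (lysozyme) at a WT mean of 174440.0 and *Csf1r* (the M-CSF receptor) at 36974. By limma, 3 of those 15 were higher in Lcn10-KO, the efferocytosis receptor *Mertk* (log2 fold change 0.44), *Adgre1* (0.26) and *C1qb* (0.18), and 2 lower, *Csf1r* (−0.23) and *Cd14* (−0.17), which is 33.3% called against 9.84% of all tested genes. The median of the list was 0.092, and its summed level was 357110.0 to 367546 in WT and 380249 to 393320.0 in Lcn10-KO.

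*Cd4* lay at 29.4, 58.2 and 55.2 normalized counts in WT replicates 1 to 3 and at 128, 124 and 141 in Lcn10-KO replicates 1 to 3. The genotypes did not overlap, and WT replicate 1 was the lowest library. The means were 47.6 ± 15.8 in WT and 131 ± 8.51 in Lcn10-KO (SD, n = 3 each), a log2 fold change of 1.50 ± 0.23 (SE) on the log2(value + 1) scale. *Cd4* ranked 15th by fold among the 12091 tested genes. Without WT replicate 1 its log2 fold change was 1.19. About 26, 51 and 67 reads stood behind the WT values and 120, 147 and 135 behind the Lcn10-KO values. Counting alone thus gives an error of 12.2% to 19.6% in a WT library and of 8.24% to 9.13% in an Lcn10-KO library. The WT libraries varied more than that, with a coefficient of variation of 33.2%, against 6.50% in Lcn10-KO.

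*Gpr162*, the gene of an orphan G protein-coupled receptor that is best known from brain, lay at 68.9, 103 and 91.1 normalized counts in WT and at 214, 246 and 247 in Lcn10-KO, in the order of the replicates. Again the genotypes were separate and WT replicate 1 was the lowest library. The means were 87.8 ± 17.5 and 236 ± 19.1 (SD, n = 3 each), with a log2 fold change of 1.43 ± 0.15 (SE) and the 20th place among all tested genes. Without WT replicate 1 the log2 fold change was 1.27. A log2 fold change above 1 was found in 0.447% of tested genes. Nothing is read from that share for this pair, which was chosen for its rise.

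**Figure D1:**
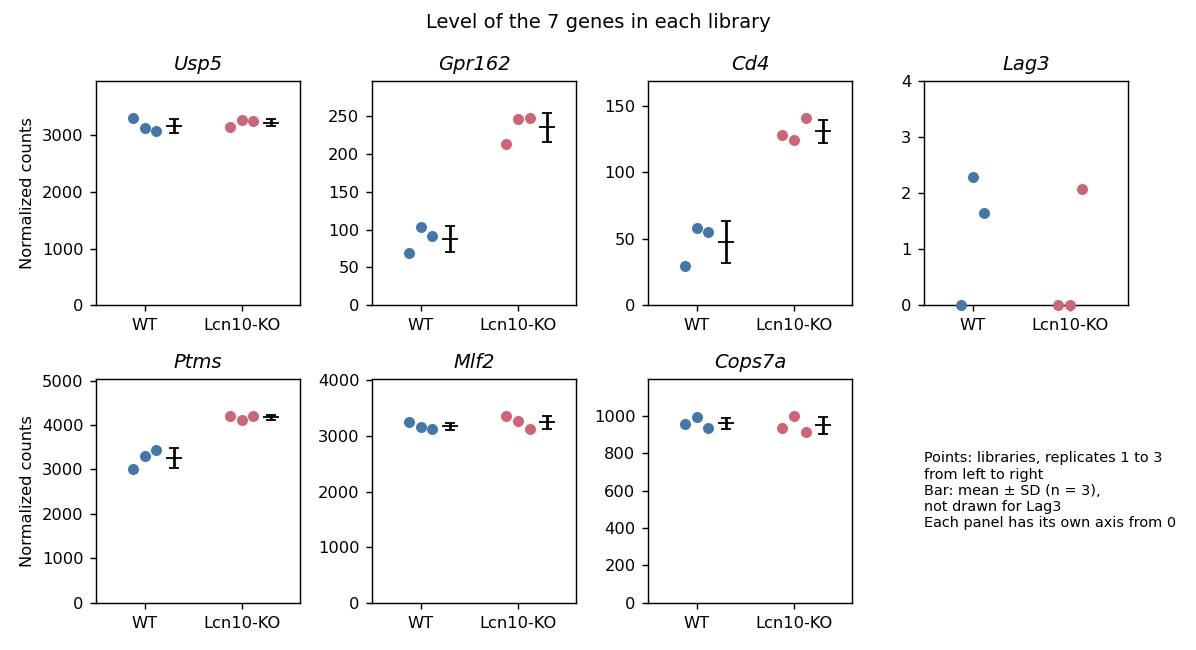
Normalized counts of the 7 genes in each library, with 1 point per library (WT blue, Lcn10-KO red) and the mean ± SD of 3 libraries beside them, on an axis from 0 in each panel. The 3 Lcn10-KO points of *Cd4* (124 to 141), *Gpr162* (214 to 247) and *Ptms* (4111 to 4200.1) lie above all WT points. Those of *Usp5*, *Mlf2* and *Cops7a* overlap the range of WT, and *Lag3* stays at or below 2.29.

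Within a genotype, *Cd4* and *Gpr162* departed from their means in part together. The locus was chosen on the same libraries, and the low values of WT replicate 1 add to the rise of both genes. This is therefore a description with no test. In WT replicates 1 to 3 *Cd4* deviated from the WT mean by −0.62, 0.35 and 0.27 on the log2 scale and *Gpr162* by −0.33, 0.25 and 0.07, so that both were lowest in replicate 1 and highest in replicate 2. WT replicate 1 also stood apart on the first principal component. *P3h3* (−0.15) and *Ptms* (−0.11) were lowest there too, whereas *Cops7a* lay at −0.01, *Mlf2* at 0.03 and *Usp5* at 0.06. Whether the low values of the pair belong to a wider shift of that library was not tested. In Lcn10-KO the deviations of *Cd4* were −0.03, −0.07 and 0.10 and those of *Gpr162* −0.14, 0.07 and 0.07. These were smaller than in WT and had no common order. Per kb of annotated exon, *Gpr162* exceeded *Cd4* by a ratio of 2.46, 1.86 and 1.73 in the WT libraries and of 1.76, 2.08 and 1.85 in the Lcn10-KO libraries. The ratios of the genotypes overlapped, so a difference in the balance of the genes was not detectable beyond the spread of the libraries.

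*Lag3* lay between *Cd4* and *Ptms* on the chromosome but was hardly detected. It was listed at 0, 2.29 and 1.64 normalized counts in WT and at 0, 0 and 2.08 in Lcn10-KO, which is 0 or about 2 reads in every library. The gene did not pass the filter and no fold change is given. A count of 0 allows up to 3 reads, or 2.47 to 3.42 normalized counts depending on the library, for counting error only. *Gnb3*, a G protein beta subunit gene 24.4 kb downstream of *Cd4*, did not exceed 3.44 and was not tested either.

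*Ptms* encodes parathymosin, a small acidic nuclear protein related to prothymosin alpha. It lay at 3013, 3311 and 3446 normalized counts in WT and at 4199.6, 4111 and 4200.1 in Lcn10-KO. All Lcn10-KO libraries were above all WT libraries, with means of 3257 ± 222 and 4170.4 ± 51.1 (SD, n = 3 each). The log2 fold change was 0.36 ± 0.05 (SE) with an adjusted p of 0.00188 by limma over all tested genes. It was 0.30 without WT replicate 1, and the call was kept with each library left out (adjusted p up to 0.0269) and was lost in limma without the mean-variance trend (adjusted p = 0.0904). On the log2 scale the difference of *Ptms* was far below those of *Cd4* and *Gpr162*, whereas in normalized counts it was the largest of the 7 genes, at 914 against 83.3 for *Cd4* and 148 for *Gpr162*. *Ptma*, the gene of prothymosin alpha, which lies elsewhere in the genome, moved the other way, from 38908 ± 1632 in WT to 34042 ± 851 in Lcn10-KO (SD, n = 3 each, log2 fold change −0.19 ± 0.04 (SE), limma adjusted p = 0.0174).

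*Mlf2*, myeloid leukemia factor 2, lay at 3239, 3154 and 3117 normalized counts in WT and at 3354, 3266 and 3122 in Lcn10-KO. The libraries of the genotypes interleaved, and the log2 fold change of 0.03 had a 95% interval from −0.06 to 0.13 (limma adjusted p = 0.666). *Cops7a*, a subunit of the COP9 signalosome, which removes NEDD8 from cullin ubiquitin ligases, lay at 956, 991 and 932 in WT and at 932, 997 and 913 in Lcn10-KO, with a log2 fold change of −0.02 and an interval from −0.14 to 0.10 (adjusted p = 0.870). *Usp5*, a protease that takes apart unanchored ubiquitin chains, lay at 3302, 3126 and 3076 in WT and at 3151, 3273 and 3252 in Lcn10-KO. Its log2 fold change of 0.03 had an interval from −0.07 to 0.12 (adjusted p = 0.756). The upper bounds of these 3 genes stay below the lower bound of 0.25 for *Ptms*. Of the 4 tested members that were taken as neighbours, 1 was therefore called, higher in Lcn10-KO. Among all tested genes 9.84% were called, 4.70% higher and 5.14% lower. The same 1 of 4 had separate genotypes, against 32.4% of all tested genes and 15.5% with Lcn10-KO higher. The choice of members left out *Cdca3*, *Gnb3* and *P3h3* of the same stretch, so nothing is read from these shares.

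Scaled by exon length, the genes fell into separate classes of level. *Ptms* was the highest at a WT mean of 2012 normalized counts per kb of exon, followed by *Mlf2* at 772, *Usp5* at 686 and *Cops7a* at 354. *Gpr162* lay at 22.9, *Cd4* at 11.8 and *Lag3* at 0.622. This order was the same in Lcn10-KO, with *Gpr162* at 61.4 and *Cd4* at 32.5, and over all 6 libraries the ranges of neighbours in the order overlapped only between *Gpr162* (18.0 to 64.4) and *Cd4* (7.30 to 34.9). *Mlf2* (759 to 817) and *Usp5* (666 to 715) came closest of the others. Among the tested members, the pair that was chosen for its rise had the lowest levels, so no link of level and change is read from this. *P3h3*, which is not a member, lay at 33.8 to 54.8 over all 6 libraries, with a log2 fold change of 0.42.

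**Figure D2:**
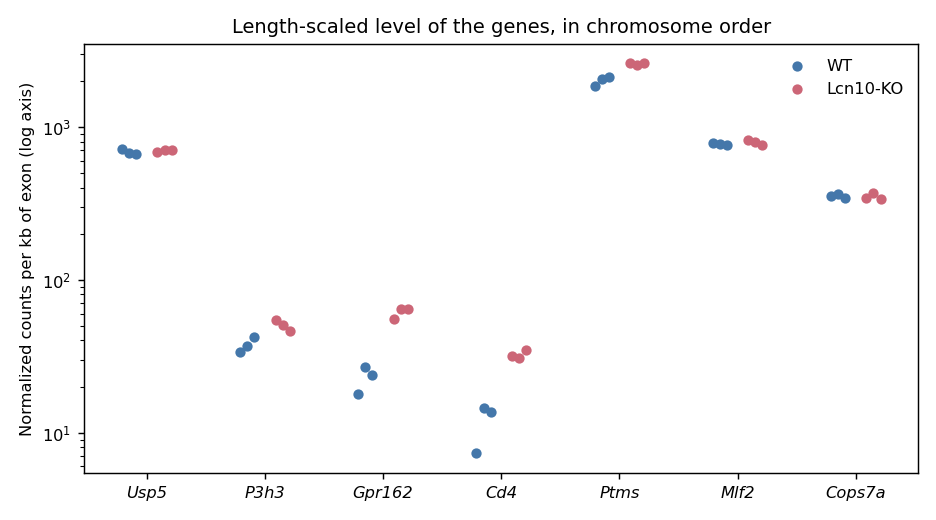
Normalized counts per kb of annotated exon (log axis) of *P3h3* and of the 6 tested genes of the locus in chromosome order, with 1 point per library (WT blue, Lcn10-KO red). *Gpr162* (18.0 to 64.4) and *Cd4* (7.30 to 34.9) lie well below *Usp5*, *Ptms*, *Mlf2* and *Cops7a*, the lowest of which has 337 in its lowest library.

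*P3h3*, a gene of the collagen prolyl 3-hydroxylase family that directly follows *Gpr162*, is not among the 7 genes but lies between them. It had 133, 146 and 166 normalized counts in WT and 215, 199 and 181 in Lcn10-KO, with separate genotypes. The log2 fold change was 0.42 ± 0.12 (SE, limma adjusted p = 0.0395), and this call was lost without WT replicate 1 or 2 or without any 1 of the Lcn10-KO libraries (adjusted p of 0.0530 to 0.144).

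**Figure D3:**
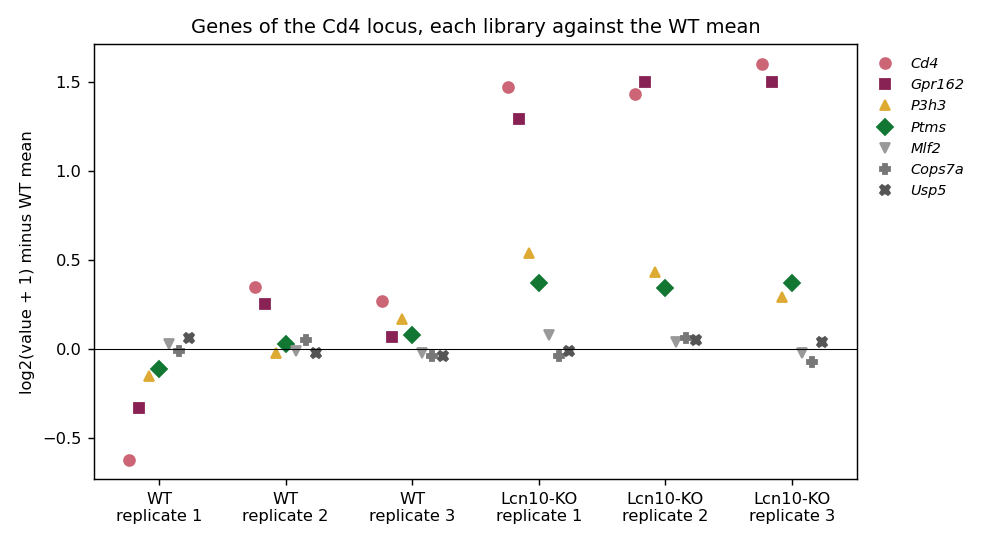
Level of 7 genes of the locus in each library on the log2(value + 1) scale, as the difference from the WT mean of the gene. In Lcn10-KO *Cd4* and *Gpr162* lie at 1.29 to 1.60 and *P3h3* and *Ptms* at 0.29 to 0.54, while *Mlf2*, *Cops7a* and *Usp5* stay between −0.07 and 0.08.

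Within 500 kb of *Cd4* the annotation holds 75 genes, of which 56 are in the table and 36 were tested. *Cd4* and *Gpr162* are left out of the counts of calls that follow. Of the other 34 genes 5 were called higher in Lcn10-KO by limma, *Ptms*, *P3h3*, *Eno2*, *Spsb2* and *Pianp*, and 0 lower, against 4.70% called higher and 5.14% lower among all tested genes. At an unadjusted p under 0.05, 8 of the 34 were higher and 5 lower. Within 100 kb of *Cd4* 4 of 9 tested genes were called higher, between 100 and 250 kb 1 of 13, between 250 and 500 kb 0 of 12 (1 higher and 1 lower at an unadjusted p under 0.05), and between 500 and 1000 kb 1 of 3. That 1 gene was *Vwf*, von Willebrand factor, with a log2 fold change of 0.19 (limma adjusted p = 0.0424). The median log2 fold change of the 34 genes was 0.031, against −0.001 over all tested genes, so that the window as a whole was hardly shifted. Among these 34 genes the calls numbered 3 without Lcn10-KO replicate 1, 1 without replicate 2 and 1 without replicate 3 of that genotype, and 9 without WT replicate 2. Limma without the trend gave 0 calls.

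*Eno2*, the neuronal form of enolase, 95.0 kb from *Cd4*, lay at 204, 221 and 215 normalized counts in WT and at 275, 308 and 313 in Lcn10-KO, a log2 fold change of 0.48 ± 0.09 (SE, limma adjusted p = 0.00750). On the other side, at 108.5 kb, *Pianp*, a membrane protein and ligand of the inhibitory receptor PILR alpha, lay at 167, 170 and 154 in WT and at 227, 233 and 234 in Lcn10-KO (log2 fold change 0.49 ± 0.09 (SE), adjusted p = 0.00915). The libraries of the genotypes did not overlap in either gene, and both calls were lost without Lcn10-KO replicate 2 or 3 (adjusted p of 0.0570 to 0.0602). *Spsb2*, a SOCS box protein that targets inducible nitric oxide synthase, had the smallest log2 fold change of the 5, 0.19 ± 0.06 (SE), with a mean of 640 ± 26.5 normalized counts in WT and 732 ± 13.2 in Lcn10-KO (SD, n = 3 each, limma adjusted p = 0.0489). It lost its call with any library but WT replicate 2 left out (adjusted p up to 0.168).

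Some of the called genes were separated by others that were not past the threshold. From *P3h3* to *Ptms*, however, only *Gpr162*, *Cd4* and the untested *Lag3* lie in between, and *Gpr162* and *Cd4* were chosen for their rise. Over the genome there were 3 runs of 4 or more adjacent tested coding genes called higher, including this stretch. Between *Spsb2* and *P3h3* lie *Tpi1*, triosephosphate isomerase, with a log2 fold change of −0.18 ± 0.06 (SE, limma adjusted p = 0.0713) and with all Lcn10-KO libraries below all WT libraries, *Usp5*, and *Cdca3*, a cell division gene (0.16 ± 0.07, adjusted p = 0.148). *Mlf2* and *Cops7a* separate *Ptms* from *Pianp*. *Lrrc23*, 85.0 kb from *Cd4*, did not exceed 1.14 normalized counts in any library.

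**Figure D4:**
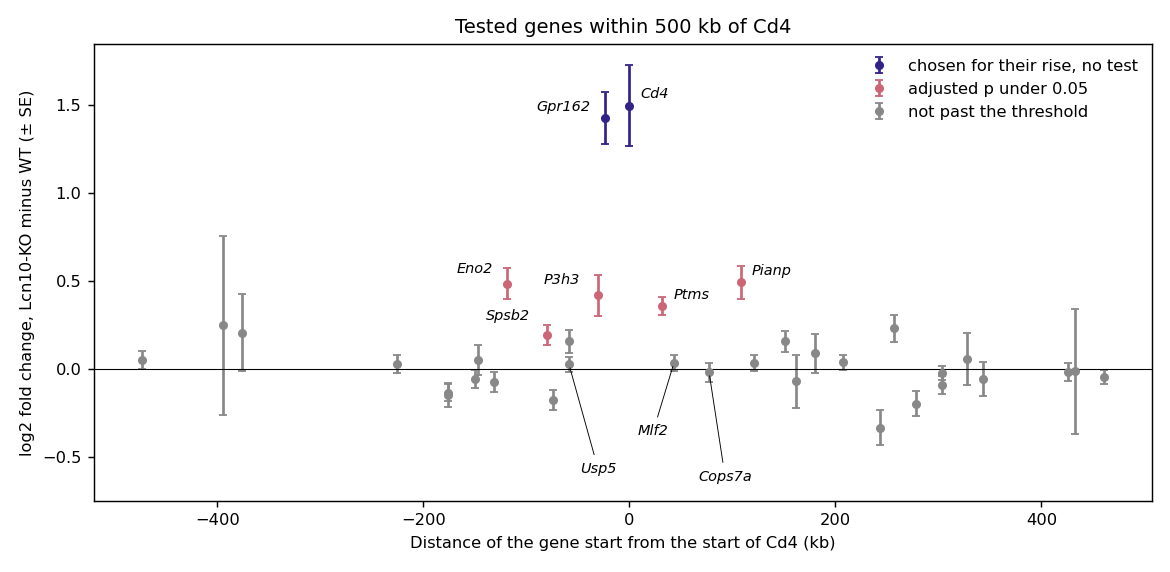
Log2 fold change (Lcn10-KO minus WT, with SE bars) of the 36 tested genes within 500 kb of *Cd4*, by the distance in kb between the start of a gene and that of *Cd4* on the coordinate axis of the chromosome. *Cd4* and *Gpr162* stand at 1.50 and 1.43, *Ptms*, *P3h3*, *Eno2*, *Spsb2* and *Pianp* between 0.19 and 0.49, and the 12 tested genes whose bodies lie more than 250 kb away hold no called gene.

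Markers of other cells that carry CD4 were looked at next, since in a bulk sample more cells of a type and more RNA per cell cannot be told apart. Of 22 T cell markers 19 are in the table. *Cd3e* was at 0 in 5 libraries and at 1.04 in Lcn10-KO replicate 3, *Cd8a*, *Cd8b1* and *Ctla4* were listed at 0 in all libraries, and none of the 16 untested markers exceeded 7.61. Their summed level was 11.7 to 15.7 normalized counts in WT and 12.3 to 22.1 in Lcn10-KO, below that of *Cd4* alone. *Lck*, the kinase that binds the tail of CD4 in T cells, did not exceed 8.46. The 3 tested T cell markers were *Il7r*, the interleukin-7 receptor (5381 ± 262 in WT and 6138 ± 292 in Lcn10-KO), *Cd28*, a costimulatory receptor (1689 ± 194 and 2321 ± 232, SD, n = 3 each), and *Lat*. The first pair were called higher, with log2 fold changes of 0.19 and 0.46 and limma adjusted p of 0.0317 and 0.0323, while *Lat*, an adaptor of the T cell receptor, had 0.22 (adjusted p = 0.553). That is 66.7% of only 3 tested markers, against 9.84% of all tested genes called and 4.70% called higher. With these 3 genes the whole list summed to 6736 to 7608 in WT and 7968 to 9000 in Lcn10-KO.

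Of the 14 dendritic cell markers 3 were tested (*Bst2*, *Tcf4* and *Batf3*) and 0 called by limma, against 9.84% of all tested genes. At an unadjusted p under 0.05 the count was also 0. *Flt3*, a receptor of dendritic cell precursors, did not exceed 0.845 normalized counts and *Siglech*, a marker of plasmacytoid dendritic cells, 1.14. The summed level of the 11 untested markers was 28.2 to 31.6 in WT and 28.4 to 39.4 in Lcn10-KO. Of 10 B cell and NK cell markers 1 was tested and 0 called (against the same 9.84%, also 0 at an unadjusted p under 0.05), and the others did not exceed 7.96. The part of such cells in the level of *Cd4* was not tested beyond these values.

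Genes that act with CD4 or LAG-3 did not move in 1 direction. Of 15 tested partners 2 were called higher, 2 lower and 11 not past the threshold (26.7% called, against 9.84% of all tested genes), with a median log2 fold change of 0.058. Higher were *Il16*, a cytokine that uses CD4 as its receptor, with 388 ± 46.9 normalized counts in WT and 520.1 ± 50.9 in Lcn10-KO (SD, n = 3 each, 0.43 ± 0.10 (SE) on the log2 scale, limma adjusted p = 0.0237), and *Lgals3*, galectin-3, a ligand of LAG-3 (0.23 ± 0.04, adjusted p = 0.00573). Lower were *Adam10*, a protease that sheds LAG-3 (−0.35 ± 0.05, adjusted p = 0.00264), and the tetraspanin gene *Cd81* (−0.21 ± 0.06, adjusted p = 0.0493). The genes of MHC class II, the ligand of both receptors, were not past the threshold, with *H2-Aa* at 0.19 ± 0.11, *H2-Ab1* at −0.01 ± 0.14, *H2-Eb1* at 0.48 ± 0.14 (adjusted p = 0.0528) and *Cd74* at −0.19 ± 0.09.

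A list of *Cd4* regulators, most of them known from T cells but with *Spi1* (PU.1) and the chromatin remodeller gene *Smarca4* included, gave 1 call among 10 tested genes. This was *Ikzf1*, the gene of Ikaros, which was lower (2173 ± 79.3 in WT and 1912 ± 42.9 in Lcn10-KO, SD, n = 3 each, log2 fold change −0.18 ± 0.05 (SE), limma adjusted p = 0.0265). A share of 1 in 10 is close to the 9.84% called among all tested genes. At an unadjusted p under 0.05, 1 was higher and 5 lower, and the median log2 fold change was −0.066. *Zbtb7b*, which directs T cells to the CD4 lineage, had a log2 fold change of −0.04 ± 0.05. *Runx3*, a repressor of *Cd4* in cytotoxic T cells, lay at 95.0, 44.7 and 65.7 normalized counts in WT and at 33.1, 52.4 and 30.1 in Lcn10-KO, so that the genotypes overlapped (−0.79 ± 0.29, adjusted p = 0.111).

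Around the neighbours, the COP9 signalosome and its cullin substrates had 0 of 17 tested genes called by limma, against 9.84% of all tested genes. At an unadjusted p under 0.05, 1 was higher and 3 lower, and the median log2 fold change was −0.034. *Cops7b*, the alternative subunit to *Cops7a*, had a log2 fold change of 0.12 ± 0.08. Among enzymes and genes of free ubiquitin chains, 1 of 10 was called, *Uchl5*, a proteasome-bound deubiquitinase, which was lower (−0.22 ± 0.05, adjusted p = 0.0217), again close to the 9.84% of all tested genes. At an unadjusted p under 0.05, 2 were higher and 3 lower. Of the relatives of *Ptms*, *Mlf2* and *Gpr162*, *Ptma* was lower, as given above, while *Mlf1* and *Gpr153* had log2 fold changes of −0.47 ± 0.26 and 0.34 ± 0.51 and did not pass.

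The genes whose log2 levels over the 6 libraries were most like the mean standardized profile of *Cd4* and *Gpr162* were *Aph1c*, a subunit of gamma-secretase (Pearson r = 0.999), *Gnpda1*, glucosamine-6-phosphate deaminase (0.998), *Dclre1c*, the nuclease Artemis (0.997), *Slc44a2*, a choline transporter-like protein (0.996), and *Aplp2*, an amyloid precursor-like protein (0.996). *Aph1c* had 935, 1207 and 1139 normalized counts in WT and 1642, 1735 and 1719 in Lcn10-KO. None of the 5 lies on chromosome 6. *Ptms* had an r of 0.987 and *P3h3* of 0.893, against 0.259 for *Mlf2*, 0.121 for *Usp5* and −0.154 for *Cops7a*. All libraries are shared between the genes, genes with widely separated genotypes score high on this measure, and 380 of 10315 eligible genes reached an r of 0.95.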

How the data were processed

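The deposited table holds a signal for each gene and library, read counts that were scaled between libraries by the authors. The build mm10 and the tools DESeq2, Salmon 0.11.2, STAR 2.6.1a and bcl2fastq are named per the submitters' processing notes. Their roles, the annotation and the strand setting: not given in the sources used here. Values are not whole, and of the values below 15 reads 87.7% to 91.4% were whole multiples of the value of 1 read within 0.1 reads, so no count test was run.

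Genes with at least 10 in at least 3 libraries (12091) were fitted as log2(value + 1) with limma 3.58.1 in R 4.3.3 (genotype only, mean-variance trend, robust). Benjamini-Hochberg adjustment over all of them and a threshold of 0.05 were used. The fit was also run on data simulated with the same dispersion for all genes and equal depth. That run cannot show how the trend setting behaves with a library that stands apart, such as WT replicate 1. The log2 scale understates changes of low genes. The 7 genes and all gene lists were chosen with earlier results of these data known. Named were the 7 genes, genes within 100 kb of *Cd4*, called genes within 500 kb, up to 4 called genes of each list, set markers, and the 5 genes most like *Cd4* and *Gpr162* with a mean of at least 50. Others were chosen after their values were seen. *Trac*, *Trbc1* and *Trbc2* were not analysed here. Exon length is the union of GENCODE M21 exons. The main fit did not pair libraries across genotypes by replicate number.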

Additional observations from a re-analysis of the deposited data

How the results depend on the processing

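Alternatives were other pseudocounts, filters, scalings and windows, limma without the trend, a replicate block and each library left out. *Mlf2* and *Usp5* kept their direction and stayed short of the threshold in all of them. *Cops7a*, not past the threshold in any, ranged from −0.06 to 0.01 with 1 library left out and changed sign without WT replicate 2 or Lcn10-KO replicate 3. The log2 fold changes ranged from 1.19 to 1.67 for *Cd4* and 1.27 to 1.56 for *Gpr162*, both lowest without WT replicate 1. In limma without the trend *Ptms* was not called (0.36, adjusted p = 0.0904), 14 genes were called in all and 0 of the 36 within 500 kb of *Cd4*, against 1190 and 7 (*Cd4* and *Gpr162* included, so no support for the locus). With 1 library left out the calls ranged from 175 to 1664 in all (566, 207 and 175 without Lcn10-KO replicate 1, 2 or 3) and from 3 to 11 within 500 kb of *Cd4*. The replicate block gave 11 calls there and 1607 in all. Whether replicate numbers pair the samples is not settled by these values. Deviations of same-numbered libraries correlated at 0.0382, 0.0734 and 0.0140. Each Lcn10-KO library correlated best with the WT library of its own number. WT replicate 3, however, correlated better with Lcn10-KO replicate 1 (0.0262) than with its own number. *P3h3* lost its call under quantile normalization (adjusted p = 0.0507) and *Spsb2* with no filter (0.0679). At the depth of these libraries *Lag3* could not be compared. The counts without *Cd4* and *Gpr162* were added after seeing the data: of those 34 genes 5 were called, 9 with the replicate block, 0 without the trend and 1 to 9 with 1 library left out.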
